A study of Mus musculus with 16 samples.

Results

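The genes examined here encode the proteins of the cytosolic ribosome. They were taken by name: every gene whose symbol on the array platform is Rpl or Rps with a number and at most 1 further letter, or Rplp0, Rplp1, Rplp2 or Rpsa. The S6 kinases and pseudogenes were left out, and the rule uses names only. This rule found 60 of the 16593 named genes, 37 of the large and 23 of the small subunit, on 77 of the 25697 probes. Ribosomal protein genes with no probe under such a symbol were not analysed here.

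Adult male C57BL/6 mice (C57BL/6 J in the study's methods), 8 weeks old, were attacked by a CD-1 mouse for 10 minutes a day on 10 days (chronic social defeat). Susceptible mice then had a social interaction ratio below 1, resilient mice a ratio above 1, and control mice were not defeated. RNA of the left and right medial prefrontal cortex (mPFC), taken 1 day after the interaction test, was hybridized to 16 Illumina arrays: 3 per side for susceptible mice, 3 per side for resilient mice and 2 per side for control mice. RNA of several mice was pooled, so p-values measure only the spread between arrays and not that between mice. In bulk tissue, fewer cells of a type cannot be told apart from less RNA per cell.

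A ribosome joins a small subunit, which reads the mRNA, to a large subunit, which forms the peptide bond. Each subunit is built around ribosomal RNA from proteins that are mostly present in 1 copy, so cells make these proteins in matched amounts. The mRNAs of mammalian ribosomal proteins usually begin with a cytosine and a run of pyrimidines, the terminal oligopyrimidine (TOP) motif, through which mTOR signaling controls their translation. In neurons, some of these mRNAs are carried into axons and dendrites.

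Of the 60 genes, 52 had a probe detected on all 16 arrays and were tested, 31 of the large and 21 of the small subunit. Rpl14, Rpl17, Rpl39l, Rpl3l, Rpl6, Rplp2, Rps23 and Rpsa did not and were left out. The tested genes had mean normalized signals between 7.09 and 14.72 on the log2 scale, values that depend on each probe and set no order between genes. Their SD within groups had a median of 0.077, against 0.081 over all 8419 genes tested. Rpl38 was the steadiest, with an SD of 0.042, and Rps9 varied most, with an SD of 0.24.

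Measured as a whole, the ribosomal protein genes moved little between arrays. The mean log2 signal of the 52 genes lay between 11.88 and 11.93 in susceptible mice, between 11.91 and 11.97 in resilient mice and between 11.89 and 11.94 in control mice, so the groups overlapped. Before normalization, the 77 probes took between 2.97% and 3.18% of the summed raw signal in susceptible mice, between 3.005% and 3.21% in resilient mice and between 2.95% and 3.01% in control mice. The share also moved with the place of an array in the deposited table: it was between 3.05% and 3.21% on the last 8 arrays and between 2.95% and 3.08% on the first 8 arrays, which hold all 4 control arrays and the first replicate of each defeated group. Mean raw signal lay between 375.7 and 462.8 on the last 8 arrays and between 466.2 and 567.2 on the first 8 arrays. What place means is not stated, and its part in the share was not tested.

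**Figure D1:**
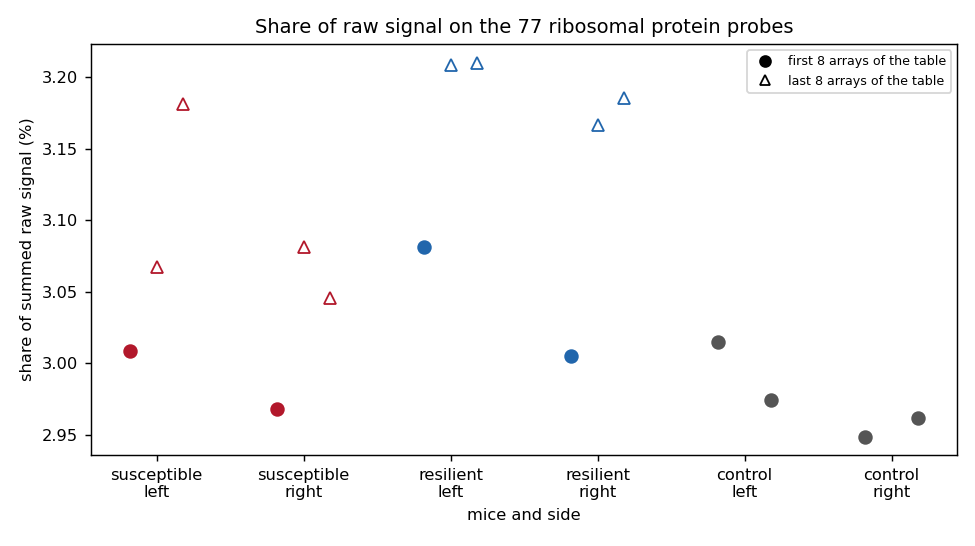
Share of the summed raw signal (%) on the 77 ribosomal protein probes, with 1 point per array, by mice and side. Filled circles are the first 8 arrays of the deposited table and open triangles the last 8. All 4 control arrays are between 2.95% and 3.01%, and the highest value on the first 8 arrays is 3.08%.

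In at least 1 comparison of defeated with control mice, 5 members passed the test: Rps26, Rpl5, Rps4x, Rps6 and Rps27l. Their start regions are printed because these genes carry the differences described further on, and because the TOP motif would lie there. Each is the RefSeq sequence (GRCm38.p6) from 40 bases before to 25 bases after an annotated transcript start, with the longest unbroken run of C and T in capitals, or the first of 2 such runs of 9 bases in Rps27l. They lie at chr10:128626482-128626546 (minus strand), chr5:107900488-107900552 (plus strand), chrX:102189367-102189431 (minus strand), chr4:86857343-86857407 (minus strand) and chr9:66946046-66946110 (plus strand, 1 of 2 listed starts).
Rps26: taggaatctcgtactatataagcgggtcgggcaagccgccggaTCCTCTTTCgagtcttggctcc
Rpl5: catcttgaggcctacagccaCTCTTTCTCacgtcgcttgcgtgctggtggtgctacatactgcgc
Rps4x: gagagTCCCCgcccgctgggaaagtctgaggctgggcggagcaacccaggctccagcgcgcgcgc
Rps6: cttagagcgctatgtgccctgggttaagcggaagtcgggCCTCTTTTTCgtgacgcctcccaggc
Rps27l: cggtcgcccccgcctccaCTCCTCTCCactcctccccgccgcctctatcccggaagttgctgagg
The run has 9 bases in Rps26, Rpl5 and Rps27l, 10 bases in Rps6 and 5 bases in Rps4x. It begins at base 4 of the annotated transcript in Rps26 and 1 base before it in Rps6, whereas in Rpl5, Rps4x and Rps27l the run in capitals lies wholly upstream of the annotated start. Rps26, which was higher in defeated mice, and Rpl5, which was lower, thus share a run of the same length.

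Of the 60 genes, 51 had such a sequence in RefSeq. A run of at least 8 C and T bases on the transcript strand was found in 31 of the 51 (60.8%), against 28.6% of 27025 genes with a start region. The letters CTTTC, which can lie inside such a run, stood on the transcript strand in 35.3% of the members and 10.1% of all genes. CCGGAAG, the core bound by Ets-family factors, was present on either strand in 19.6% of the members and 4.73% of all genes, and TATAA, the core of a TATA box, on either strand in 15.7% of the members and 8.14% of all genes. These are matches of letters and not sites. A gene with several listed starts counted if any of them held the run or the letters, so such genes had more chances. The 40 bases before each start were included.

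Left and right mPFC of susceptible mice did not differ at any ribosomal protein gene by limma. None of 52 was called at an adjusted p below 0.05, against 5.21% of all genes tested, and 4 had an unadjusted p below 0.05, or 7.69% of the members against 16.7% of all genes. The median left minus right difference of the members was 0.02 on the log2 scale, against 0.00 over all genes. The 95% intervals of the 52 genes ran from -0.29 to 0.30 at their outermost.

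Rpl23, a large subunit protein, had the highest difference. It was at 14.64, 14.77 and 14.71 in the left and 14.44, 14.67 and 14.55 in the right mPFC of susceptible mice, so the sides overlapped (0.15 ± 0.06, SE, adjusted p = 0.19). Its other 2 probes differed by -0.17 (unadjusted p = 0.037) and 0.09. Rps15a, of the small subunit, had the lowest, with 10.20, 10.16 and 10.17 on the left and 10.28, 10.36 and 10.31 on the right (-0.14 ± 0.06, SE, adjusted p = 0.25). The sides did not overlap for Rps15a, as for 7.69% of the members and 20.1% of all genes.

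The same arrays differed in other genes. All 15 tested oligodendrocyte markers were lower on the left side of susceptible mice, with a median left minus right difference of -0.59. Of 5 upper-layer (layer 2/3) neuron markers 4 were higher on the left, with a median of 0.78. Ribosomal protein genes showed no call on arrays where these markers differed.

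Resilient and control mice gave no called member between sides either. In resilient mice 0.0356% of all genes were called, and 2 of 52 members (3.85%) had an unadjusted p below 0.05, against 4.37% of all genes. Rpl36a had the highest difference (0.17 ± 0.10, SE, adjusted p = 0.99) and Rps25 the lowest (-0.10 ± 0.10, SE, adjusted p = 0.99), and for both the sides overlapped. In control mice, where 0.0119% of all genes were called, 1 member (1.92%) had an unadjusted p below 0.05, against 4.99% of all genes. This was Rps24, at 13.72 and 13.69 in the left and 13.55 and 13.42 in the right mPFC (0.22 ± 0.08, SE, adjusted p = 0.71), and its other probe differed by -0.10. Rpl27 was lowest there (-0.15 ± 0.09, SE, adjusted p = 0.9997).

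**Figure D2:**
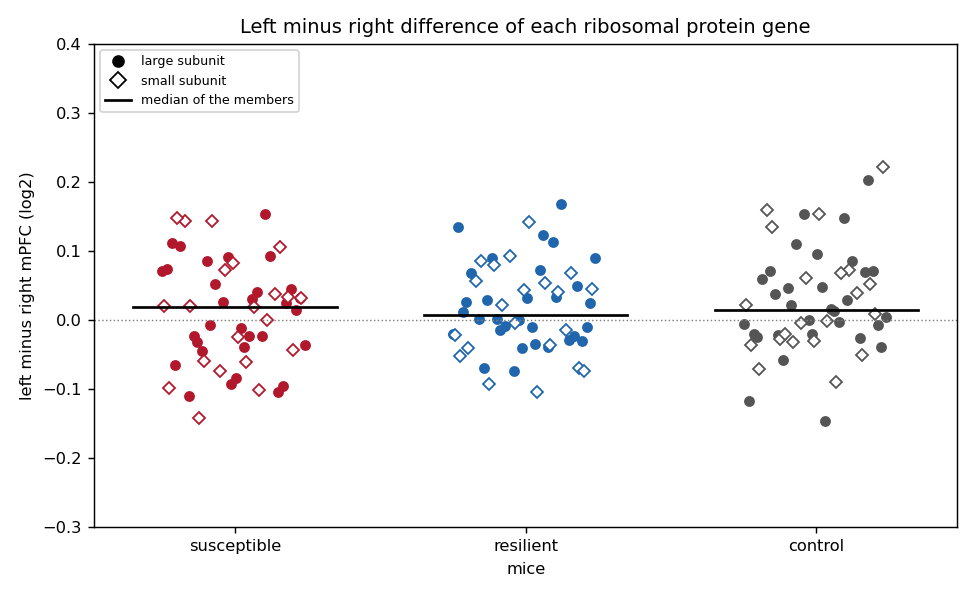
Left minus right difference (log2) of each of the 52 tested ribosomal protein genes in susceptible, resilient and control mice. Filled circles are large subunit genes, open diamonds small subunit genes, and the bar is the median, which is 0.02 in susceptible mice and 0.01 in both other groups.

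The difference in laterality itself was also tested. No member was called for left minus right in susceptible mice against the same in control mice, where 2.63% of all genes were called, or against the same in resilient mice, where 2.15% were called. In each of these tests 1 member had an unadjusted p below 0.05, as had 12.9% and 12.2% of all genes. It was Rps2, a small subunit protein, in both (0.22 ± 0.10, SE, adjusted p = 0.34 against control, and 0.19 ± 0.09, SE, adjusted p = 0.39 against resilient mice). Rps24 was lowest against control mice (-0.19 ± 0.10, SE, adjusted p = 0.46) and Rps13 against resilient mice (-0.17 ± 0.10, SE, adjusted p = 0.56). The tests share the susceptible arrays.

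Over both sides, 4 of 52 ribosomal protein genes changed in defeated mice (susceptible and resilient together) against control mice. Rps26, Rps27l and Rps4x rose and Rpl5 fell, whereas the other 48 did not pass. The called share was 7.69%, against 11.2% of all genes tested, of which 5.27% were higher and 5.96% lower. At an unadjusted p below 0.05 there were 11 members (21.2%), against 26.6% of all genes. The members' median was 0.02 on the log2 scale and that of all genes 0.01. Of the 52 genes 32 were above 0 (61.5%), against 54.2% of all genes.

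Rps26 encodes a small subunit protein near the mRNA exit channel. It was at 12.02, 12.01 and 12.06 in the left and 12.04, 12.02 and 11.98 in the right mPFC of susceptible mice. In resilient mice it was at 12.02, 12.10 and 12.08 on the left and 12.02, 12.05 and 11.87 on the right. Control mice had 11.76 and 11.95 on the left and 11.75 and 11.70 on the right. Every susceptible array was above every control array, and 1 resilient array lay below the highest control. Among the members only Rps26 had no overlap between susceptible and control mice (1.92%), a share not set against that of all genes here.

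The difference of Rps26 was 0.23 ± 0.04 (SE) on the log2 scale in defeated against control mice, a 1.18-fold level (adjusted p = 0.00097). It was 0.24 ± 0.05 in susceptible (adjusted p = 0.0036) and 0.23 ± 0.05 in resilient mice (adjusted p = 0.0027), comparisons that share the control arrays. On the right side alone it was 0.29 ± 0.07 in susceptible (adjusted p = 0.012) and 0.26 ± 0.07 in resilient mice (adjusted p = 0.045). On the left it was 0.18 ± 0.07 in susceptible (adjusted p = 0.15) and 0.21 ± 0.07 in resilient mice (adjusted p = 0.11), below the threshold.

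The calls of Rps26 for all defeated mice and for resilient mice over both sides stayed without any 1 of the 16 arrays. That for susceptible mice was lost without control left replicate 1 (adjusted p = 0.057), and that of the right side in susceptible mice without either right control array (adjusted p = 0.073 and 0.16). The right-side call in resilient mice was lost without any 1 of 10 arrays, at adjusted p from 0.050 to 0.31. On the first 8 arrays alone, the 4 defeated arrays averaged 12.03 and the 4 control arrays 11.79, with no overlap (exact permutation test, two-sided, p = 0.029, the smallest this design allows). Both the 4 control and the 4 defeated arrays were also in the fit that called Rps26, so this is no separate test. Rpl30 and Rps19 (higher) and Rpl13a (lower), none of them called, also had no overlap there and the same p. The permutation test was run on the members only, so no share of all genes stands beside it.

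The rise of Rps26 was one relative to the other genes of each array. Its raw signal was between 3304 and 5028 on defeated arrays and between 3700 and 4568 on control arrays. Where each array was only scaled to a common median, that median was taken over all 25697 probes, of which 11922 were detected on every array. Before scaling it lay between raw signals of 89.4 and 111.6. With this scaling the median difference of all 8419 genes tested was -0.16 in defeated against control mice. Rps26 differed by 0.03, and its difference relative to that shift was 0.19. Which scaling holds was not tested.

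Rpl5 carries 5S ribosomal RNA into the large subunit. It was at 12.53, 12.55 and 12.57 in the left and 12.52, 12.32 and 12.48 in the right mPFC of susceptible mice. In resilient mice it was at 12.56, 12.56 and 12.56 on the left and 12.68, 12.38 and 12.60 on the right. Control mice had 12.93 and 12.50 on the left and 12.74 and 12.74 on the right. Control left replicate 2 lay among the defeated arrays and the other 3 control arrays above all of them.

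Rpl5 fell by 0.20 ± 0.06 (SE) on the log2 scale in defeated against control mice (adjusted p = 0.028) and by 0.23 ± 0.07 in susceptible mice (adjusted p = 0.029). In resilient mice it differed by -0.17 ± 0.07 (adjusted p = 0.11). Without control left replicate 1 the difference was -0.09 in defeated mice (adjusted p = 0.40) and -0.12 in susceptible mice (adjusted p = 0.31), and both calls were also lost without either right control array. They were lost as well with a normexp background (adjusted p = 0.086 and 0.093) and with place in the table as a block (-0.15, adjusted p = 0.28, and -0.18, adjusted p = 0.23). Scaled to a common median, Rpl5 differed by -0.37 and -0.40, or -0.21 and -0.23 relative to the shift of all genes. That in susceptible mice was lost as well without replicate 2 of either susceptible side. On the first 8 arrays alone the difference was -0.15 (exact permutation test, two-sided, p = 0.14).

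Rps4x, an X-linked small subunit protein, was at 12.72, 12.85 and 12.70 in the left and 12.88, 12.88 and 12.82 in the right mPFC of susceptible mice. In resilient mice it was at 12.81, 12.87 and 12.83 on the left and 12.81, 12.90 and 12.92 on the right. Control mice had 12.73 and 12.74 on the left and 12.65 and 12.69 on the right. All 6 resilient arrays were above all 4 control arrays, and 2 left arrays of susceptible mice lay among the controls. In resilient against control mice 4 members were higher and 1 lower without overlap (9.62%), a share not set against that of all genes here.

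The difference of Rps4x was 0.16 ± 0.05 (SE) in resilient (adjusted p = 0.029), 0.11 ± 0.05 in susceptible (adjusted p = 0.14) and 0.13 ± 0.04 in all defeated mice (adjusted p = 0.036), against control mice. Where arrays were scaled to a common median, it was 0.02, -0.04 and -0.01 in the same order. All genes then shifted by -0.14, -0.17 and -0.16. Relative to that shift Rps4x differed by 0.16 in resilient and 0.15 in all defeated mice. The call in resilient mice was lost without any 1 of 7 arrays, each control array among them (adjusted p from 0.059 to 0.11), and that in all defeated mice without any 1 of 8 arrays (0.050 to 0.14). With place in the table as a block both calls were lost (0.13, adjusted p = 0.20, and 0.11, adjusted p = 0.28, in the same order). They were lost as well with a normexp background (adjusted p = 0.055 and 0.061) and with no detection filter (adjusted p = 0.054 and 0.066). On the first 8 arrays the difference was 0.11 (exact permutation test, two-sided, p = 0.086).

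Rps6, which the S6 kinases phosphorylate downstream of mTOR, was at 11.53, 11.51 and 11.50 in the left and 11.51, 11.67 and 11.53 in the right mPFC of susceptible mice. In resilient mice it was at 11.53, 11.77 and 11.65 on the left and 11.34, 11.73 and 11.64 on the right. Control mice had 11.30 and 11.46 on the left and 11.27 and 11.54 on the right. The groups overlapped, since control right replicate 2 lay above 5 of the 6 susceptible and 2 of the 6 resilient arrays.

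Rps6 was called in resilient mice alone, at 0.21 ± 0.07 (SE, adjusted p = 0.044). It differed by 0.15 ± 0.07 in susceptible mice (adjusted p = 0.18) and by 0.18 ± 0.06 in all defeated mice (adjusted p = 0.052). With arrays scaled to a common median Rps6 differed by 0.02 in resilient, -0.07 in susceptible and -0.03 in all defeated mice. All genes then shifted by -0.14, -0.17 and -0.16 in that order, and Rps6 in resilient mice differed by 0.16 relative to that shift. The call was lost without any 1 of 9 arrays (adjusted p from 0.050 to 0.27) and under 9 of 13 other settings, the authors' normalized values among them (adjusted p = 0.053). Between susceptible and resilient mice Rps6 differed by -0.14 ± 0.09 on the left (adjusted p = 0.54) and by 0.00 ± 0.09 on the right (adjusted p = 0.99). On the first 8 arrays its difference was 0.08 (exact permutation test, two-sided, p = 0.26).

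Rps27l is a paralog of Rps27 known as a target of p53. It was at 10.55, 10.70 and 10.51 in the left and 10.50, 10.51 and 10.55 in the right mPFC of susceptible mice. In resilient mice it was at 10.49, 10.50 and 10.68 on the left and 10.51, 10.63 and 10.55 on the right. Control mice had 10.45 and 10.38 on the left and 10.51 and 10.20 on the right, and only 1 control array reached the defeated ones.

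Rps27l rose by 0.18 ± 0.05 (SE) in all defeated mice (adjusted p = 0.029), and missed the threshold in susceptible (0.17 ± 0.06, adjusted p = 0.063) and in resilient mice (0.18 ± 0.06, adjusted p = 0.052). With arrays scaled to a common median it differed by -0.05 in all defeated mice, 0.11 above the shift of all genes. The call was lost without control left replicate 1, control left replicate 2 or control right replicate 2, where the difference was as low as 0.10 and adjusted p as high as 0.31. It was also lost with the replicate number as a block (0.17, adjusted p = 0.054), with place in the table as a block (0.13, adjusted p = 0.29) and with a normexp background (0.18, adjusted p = 0.074). On the first 8 arrays the difference was 0.13 (exact permutation test, two-sided, p = 0.086). Its parent Rps27 differed by -0.04 ± 0.04 (adjusted p = 0.57).

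**Figure D3:**
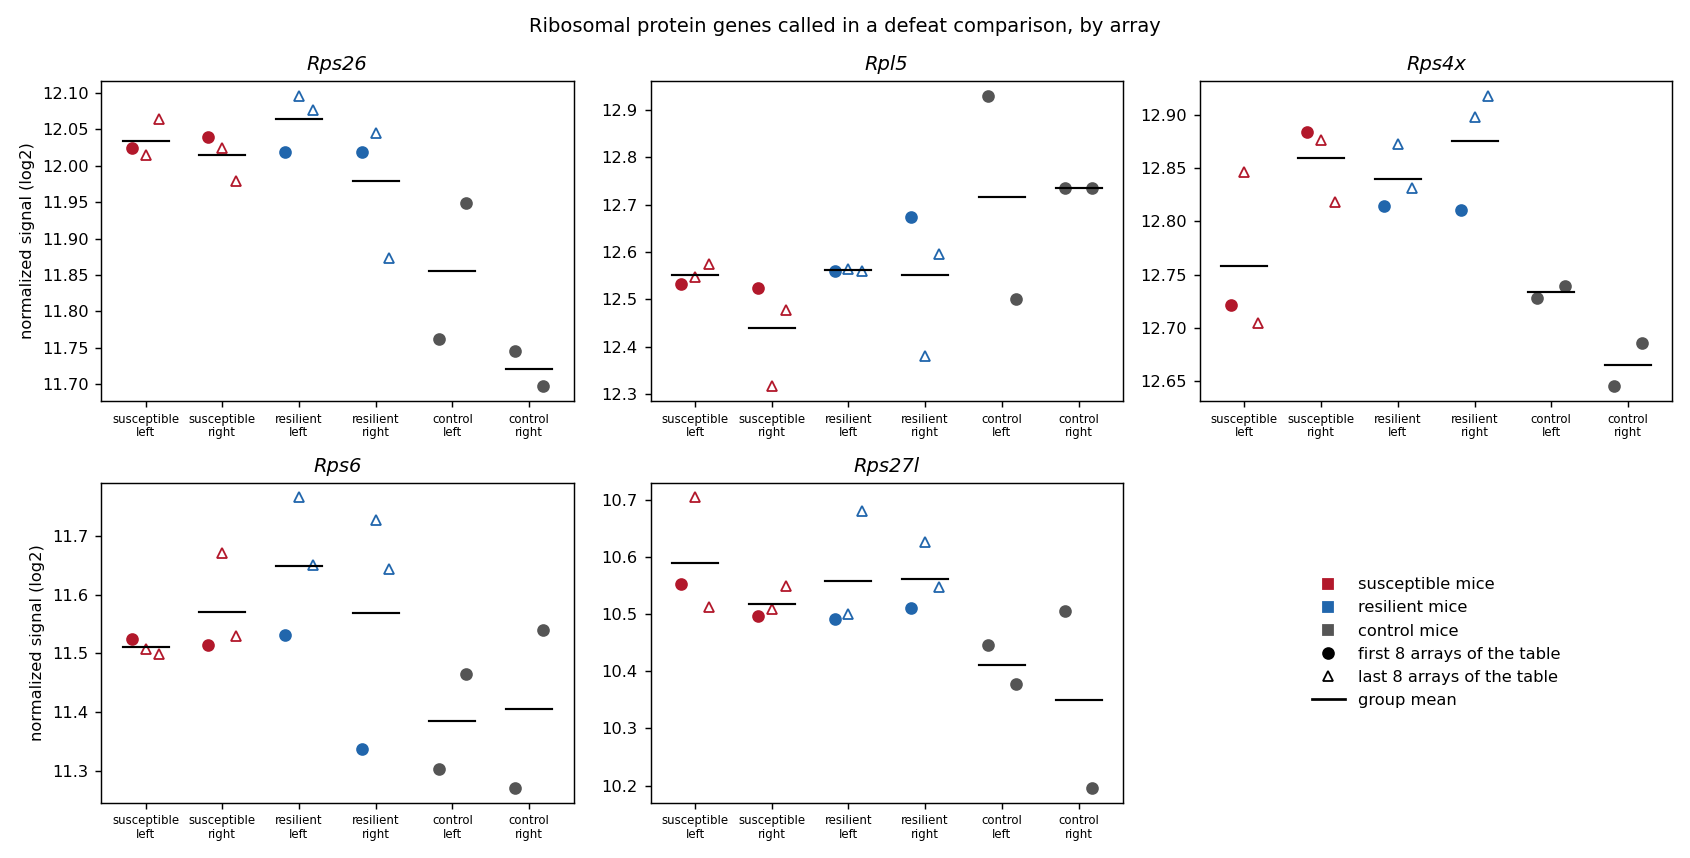
Normalized signal (log2) of the 5 ribosomal protein genes called in a comparison of defeated with control mice, with 1 point per array and a bar at each group mean, by mice and side. Filled circles are the first 8 arrays of the deposited table and open triangles the last 8. Rps26 is at or above 11.98 on every susceptible array and at or below 11.95 on every control array.

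By mouse group, 2 of 52 members were called in susceptible against control mice over both sides (Rps26 higher and Rpl5 lower), where 8.37% of all genes were, 3.74% higher and 4.63% lower. In resilient mice 3 were called, all higher (Rps26, Rps6 and Rps4x), where 9.54% of all genes were, 4.58% higher and 4.95% lower. Unadjusted p was below 0.05 for 8 members in susceptible and 14 members in resilient mice. These are 15.4% and 26.9% of the members, against 24% and 24.5% of all genes. The counts moved with single arrays. Without control left replicate 1 they were 0 in susceptible, 1 in resilient and 1 in all defeated mice, and without resilient right replicate 1 they were 2, 8 and 6. Without any 1 of resilient left replicate 2, right replicate 2 or right replicate 3, 1 member was called in resilient mice. In resilient mice 6 were called without resilient left replicate 1, and 5 without susceptible right replicate 1 or susceptible left replicate 2. In susceptible mice 1 was called without control right replicate 2 or replicate 2 of either susceptible side, and in all defeated mice 2 without any 1 of the other 3 control arrays.

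Within one side the calls were fewer. Rps26 was the only call on the right side, in susceptible and in resilient mice (4.88% and 2.26% of all genes). There 7 and 6 members had an unadjusted p below 0.05, as had 18.4% and 15.6% of all genes. On the left no member was called in susceptible (4.24% of all genes) or in resilient mice (2.70%), with 4 and 9 members at an unadjusted p below 0.05, as were 20.3% and 16.1% of all genes. Rps2 was highest on the left in susceptible mice, at 12.45, 12.41 and 12.38 against 12.18 and 12.22 in control mice (0.21 ± 0.07, SE, adjusted p = 0.086), and Rps9 lowest (-0.22 ± 0.15, SE, adjusted p = 0.43). In resilient mice Rps6 was highest on the left (0.26 ± 0.10, SE, adjusted p = 0.15). Rplp0, a stalk protein often taken as a reference gene in PCR, was lowest there, at 7.63, 7.39 and 7.51 against 7.67 and 7.69 in control mice (-0.17 ± 0.08, SE, adjusted p = 0.30). Its probe was dim, with raw signals between 152.1 and 249.5 where the medians of the arrays were between 89.4 and 111.6. The other probe of Rplp0 was detected on 0 arrays.

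**Figure D4:**
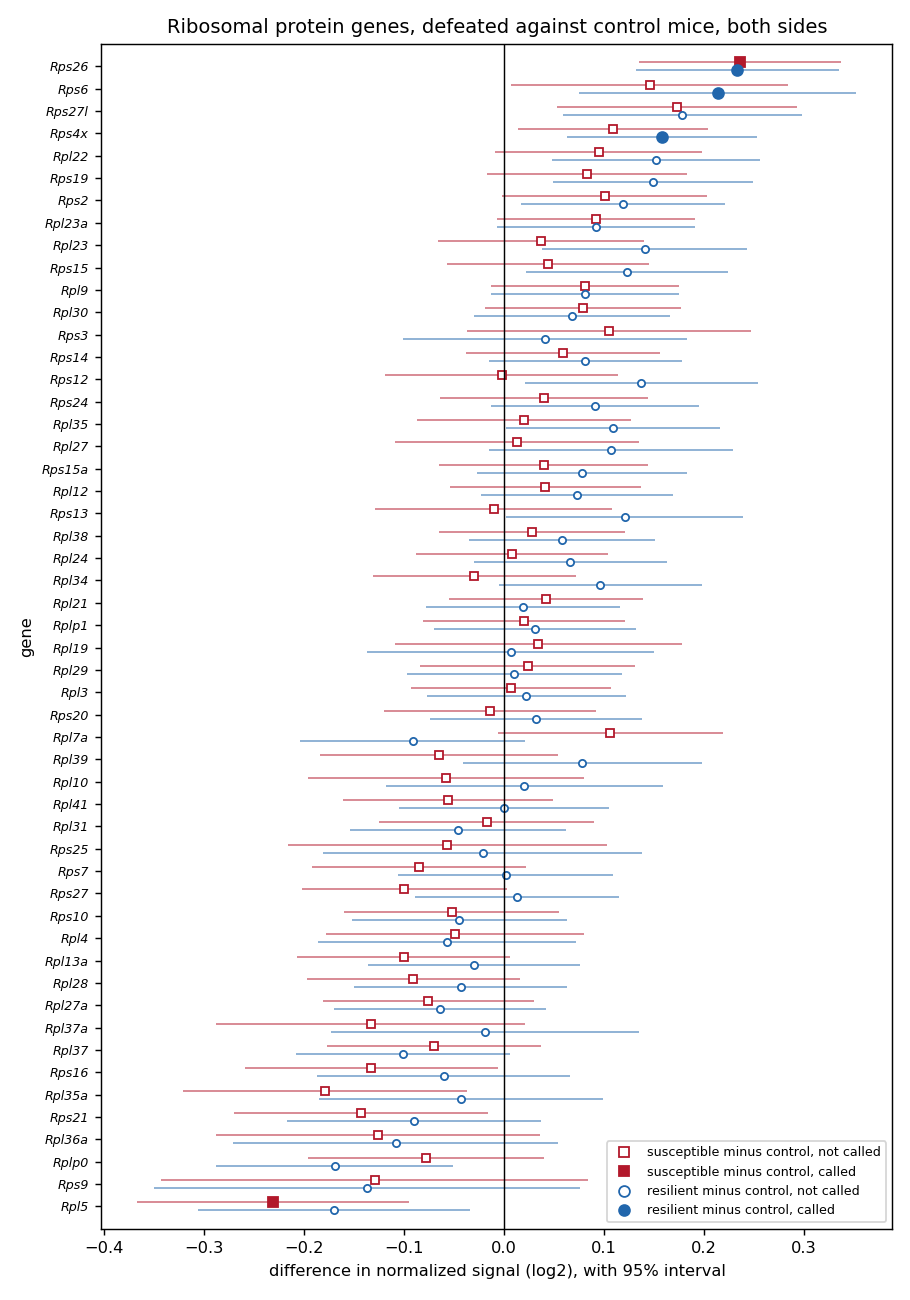
Difference in normalized signal (log2) of each of the 52 tested ribosomal protein genes over both sides, with its 95% interval, in susceptible (squares) and resilient (circles) mice against control mice. Filled symbols passed the test. Genes run by their difference in all defeated mice, with Rps26 at the top and Rpl5 at the bottom.

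In all defeated mice the median difference was 0.01 for the 31 large subunit genes and 0.07 for the 21 small subunit genes, with 18 and 14 genes above 0. For resilient mice the medians were 0.02 for the large subunit and 0.08 for the small, with 19 of 31 and 16 of 21 genes above 0, and for susceptible mice 0.01 and 0.04, with 16 and 11 genes above 0. Of the called members 3 belong to the small subunit and 1 to the large. No test was made of the difference between subunits.

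Other genes named for their role were not called in defeated against control mice. Rplp0, whose probe was dim, differed by -0.12 ± 0.05 (SE, adjusted p = 0.12) and its stalk partner Rplp1 by 0.03 ± 0.04 (adjusted p = 0.76). Rpl13a, another common reference gene, differed by -0.07 ± 0.05 (adjusted p = 0.39). Scaled to a common median, where all genes shifted by -0.16, Rplp0 (-0.27, adjusted p = 0.043) and Rpl13a (-0.28, adjusted p = 0.030) passed the threshold. Rpl3, which lies near the peptidyl transferase center, differed by 0.01 ± 0.04 (adjusted p = 0.86), Rpl10 by -0.02 ± 0.06 (adjusted p = 0.87) and Rpl39 by 0.01 ± 0.05 (adjusted p = 0.95), where scaling to a common median gave -0.14 for Rpl3 and -0.13 for Rpl39.

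Their tissue-restricted paralogs were dim. Rpl39l was detected on 0 arrays and Rpl3l, which is known from muscle, on 15 arrays, so neither was tested. Rpl10l, Rps18 and Rps27a were not analysed here.

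Of the paralogs whose names fall just outside the rule, 1 was called in defeated against control mice. Rpl22l1, the paralog of Rpl22, differed by -0.22 ± 0.07 (SE, adjusted p = 0.032) in defeated against control mice, and Rpl22 itself by 0.12 ± 0.05 (adjusted p = 0.075). Rpl22 differed by -0.10 where arrays were scaled to a common median and all genes shifted by -0.16. The call of Rpl22l1 was lost without any 1 of 5 arrays, each control array among them (adjusted p from 0.052 to 0.17). Over all 29 alternatives, other settings included, it was lost in 10, with adjusted p as high as 0.39. Rpl7l1 (0.06 ± 0.04, adjusted p = 0.43), Rpl36al (0.10 ± 0.05, adjusted p = 0.16) and Rps3a1 (-0.13 ± 0.07, adjusted p = 0.21) were not called, and Rps4y2 and Rps4l were not analysed here. In susceptible against control mice over both sides Rpl22l1 was also lower (-0.25 ± 0.07, adjusted p = 0.034), and Rps23rg1, a retrogene named after Rps23, was higher (0.22 ± 0.07, adjusted p = 0.034).

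Susceptible and resilient mice did not differ at any ribosomal protein gene by limma on either side. On the left 0 of 52 were called, against 2.38% of all genes, with 2 (3.85%) at an unadjusted p below 0.05, against 12.7% of all genes. The members' median was -0.05, against 0.01 over all genes, and 13 of 52 were above 0, against 52.3% of all genes. On the right 0 were called, against 0.831% of all genes, with 6 (11.5%) at an unadjusted p below 0.05, against 12.7% of all genes. The median there was -0.04, against 0.00 over all genes, and 16 of 52 were above 0, against 49.1% of all genes.

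Rpl7a, a large subunit protein, had the highest difference on both sides. In the right mPFC it was at 9.69, 9.48 and 9.70 in susceptible and at 9.39, 9.29 and 9.40 in resilient mice, with no overlap (0.27 ± 0.07, SE, adjusted p = 0.072). On that side 1 member was higher and 1 lower without overlap (3.85%), a share not set against that of all genes here. Rpl7a passed the threshold without susceptible right replicate 2 (0.34, adjusted p = 0.025). In the left mPFC it was at 9.59, 9.62 and 9.59 in susceptible and at 9.54, 9.50 and 9.38 in resilient mice (0.13 ± 0.07, SE, adjusted p = 0.45). Rps13 was lowest on the left, at 11.19, 11.06 and 11.36 in susceptible and at 11.39, 11.38 and 11.48 in resilient mice (-0.21 ± 0.07, SE, adjusted p = 0.14). Rpl39 was lowest on the right (-0.17 ± 0.07, SE, adjusted p = 0.34).

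**Figure D5:**
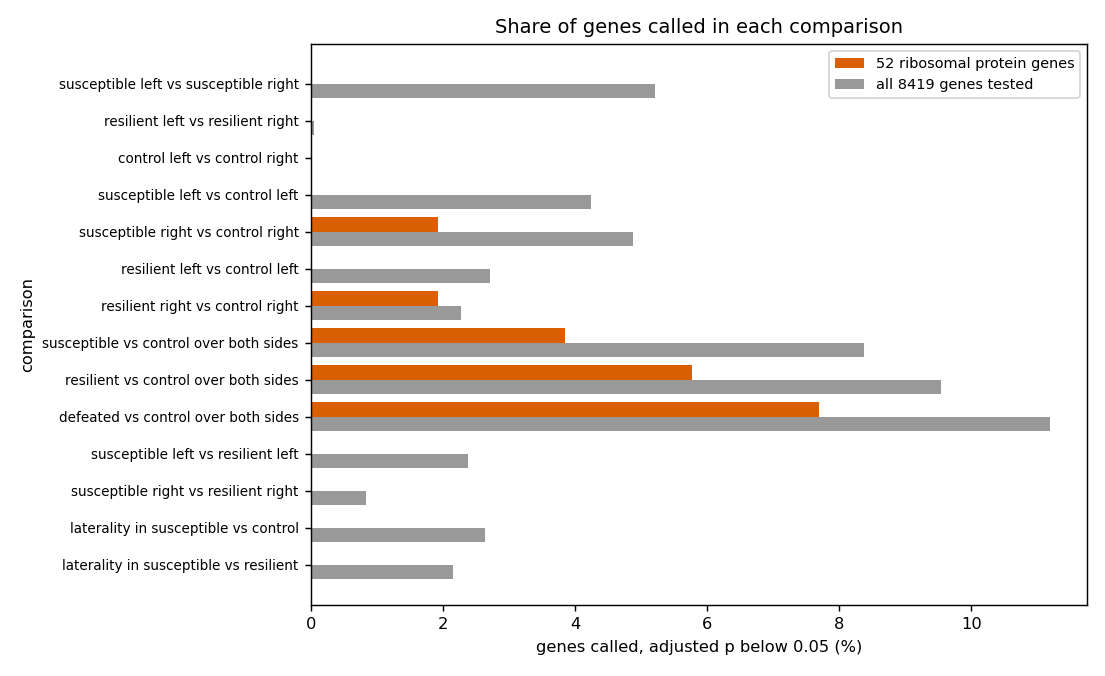
Share of genes called (%, limma, adjusted p below 0.05) in each of the 14 comparisons, for the 52 tested ribosomal protein genes (upper bar) and all 8419 genes tested (lower bar). The members' share is highest in all defeated against control mice, at 7.69% where that of all genes is 11.2%.

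Probes of one gene often disagreed at this size of difference. Of the tested members 8 had more than 1 probe detected on all arrays, and in defeated against control mice the probes of 5 of them had opposite signs. The 3 probes of Rpl23 differed by 0.09, 0.01 and -0.10, those of Rps24 by 0.07 and -0.10, those of Rps9 by -0.13 and 0.09, and those of Rpl31 by -0.03 and 0.06. None of these was called. Rps26, Rpl5, Rps4x, Rps6 and Rps27l had a single detected probe each, so no second probe could be compared, and ribosomal protein genes have many processed pseudogenes whose transcripts a probe may share.

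Other parts of the translation machinery were counted in defeated against control mice, where 11.2% of all genes were called. Among mitochondrial ribosomal protein genes, which serve the separate ribosome of that organelle, 2 of 70 were higher (Mrpl40 and Mrps25) and 1 lower (Mrpl20). Among initiation factors 2 of 30 were higher (Eif2b1 and Eif3d) and 4 lower, of which Eif4g2 had the largest difference (-0.30 ± 0.07, SE, adjusted p = 0.0038). Of 10 elongation factors 1 was higher, Eef2, which moves the ribosome along the mRNA (0.22 ± 0.06, SE, adjusted p = 0.0093).

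Ribosome assembly factors had 0 of 31 higher and 2 lower (Bop1 and Emg1), and RNA polymerase I, which makes ribosomal RNA, 1 of 9 higher and 1 lower. Of 12 genes of the mTOR pathway and the S6 kinase family, only Rps6ka5 was called (0.15 ± 0.04, SE, adjusted p = 0.017). Of 14 other genes with a TOP start or a ribosomal fusion, Eef2 was higher and Naca and Pabpc1 were lower. In the left against the right mPFC of susceptible mice none of these lists held a call. Under alternatives, 331 of 406 list counts in these comparisons stayed within 1.5 times the reported count and 75 did not.

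Markers of other cells moved in the same comparison. All 3 tested blood cell markers were higher in defeated mice, with summed signals between 7491 and 10178 in susceptible mice, between 6585 and 7708 in resilient mice and between 4434 and 4749 in control mice. Of 7 layer 6 and 6b neuron markers 4 were higher, with sums between 7250 and 11490 in susceptible, between 10135 and 10647 in resilient and between 7561 and 8482 in control mice. The blood markers Hbb-b1, Hbb-b2 and S100a9 were not tested. Both called layer 2/3 markers, of 5, were lower (Cux2, -0.26, and Stard8, -0.25), as were 1 of 5 astrocyte markers (Slc1a3, -0.13) and 1 of 7 microglia markers (P2ry12, -0.33). Of 15 oligodendrocyte markers 3 were higher (Mog, Trf and Anln) and 1 lower (Mal). None of 4 endothelial, 4 meningeal and 3 excitatory cortical neuron markers was called. Of 3 tested neuron markers (Syt1, Rbfox3 and Stmn2) none was called, and they were detected on every array, as were 3 of 5 excitatory cortical neuron markers. The part of these markers in the differences of Rps26, Rpl5, Rps4x, Rps6 and Rps27l was not tested.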

How the data were processed

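Each of the 16 mPFC samples was hybridized to an Illumina MouseRef-8 v2 array. The authors scanned them in GenomeStudio 1.0.6 and deposited the average probe signal, an intensity on a linear scale from 51.9 to 37310 with no background subtracted, and a detection score from 0 to 1, of which 1 minus the score was taken as the detection p. The authors also deposited log2 values normalized with lumi, with column medians from 7.2766 to 7.2779 and no centering of genes. Their normalization method and low-end scale are not given in the sources used here, and they served as an alternative.

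Raw signals were log2 transformed and then quantile normalization was applied here (limma 3.58.1, R 4.3.3). Probes had to reach a detection p of 0.05 on all 16 arrays, which 11922 did, and the brightest probe stood for a gene, 8419 in all. Symbols came from the platform annotation, with 1 symbol for 23978 probes and none for 1719. One limma model with 6 groups gave 14 comparisons with moderated errors (10 residual and 16.0 prior degrees of freedom) and Benjamini-Hochberg adjustment over all 8419 genes, with a threshold of 0.05. Intervals are 95%. The number of arrays limits the precision.

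The members and gene lists were chosen with earlier results of these data known. Named in the text are every called member, the highest and lowest member of a comparison with no call, reference genes, paralogs with their parents, and genes whose probes disagree. Start regions are from RefSeq (GRCm38.p6). No chip number was used, so place in the table stands only for order. Alternatives were other background corrections, scalings, filters, probe rules, variance models, sample sets and blocks, and leaving out each array. Plots used matplotlib 3.10.9 and Python 3.11.15.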

Additional observations from a re-analysis of the deposited data

Results flagged for a closer look

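In all, 5 values of named members stood apart from the rest of their group of mice, with both sides together (Dixon's gap test, 95% level). Rps26 was at 11.87 in resilient right replicate 3, where the next resilient array was at 12.02, and this array is the one that overlapped the controls. Rps27l was at 10.70 in susceptible left replicate 2, where the next was at 10.55. Rps6 was at 11.67 in susceptible right replicate 2, above 11.53 on the next array. Rps15a was at 10.48 in resilient right replicate 3, above 10.27 on the next. Rps27 was at 12.92 in control right replicate 2, above 12.83 on the next. Over all 52 members 10 of 156 sets of arrays held such a gap (6.41%), where chance gives about 1 in 20.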

How the results depend on the processing

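Of 196 counts of called members under 14 other settings, 161 stayed within 1.5 times the reported count and 35 did not. Most comparisons had no call as reported, so many of the kept counts are 0 that stayed 0. A kept count can also hold other members. With median scaling in all defeated mice Rps26 (adjusted p = 0.76), Rps27l (adjusted p = 0.66) and Rps4x (adjusted p = 0.90) lost their calls. There Rpl5, Rplp0 and Rpl13a passed, all lower, where all genes shifted by -0.16. The 35 counts that moved follow. With a normexp background the count was 1 in each of the comparisons of susceptible, resilient and all defeated with control mice over both sides, and 0 on the right in resilient mice. With median scaling it was 0 on the right in susceptible and in resilient mice, 0 in resilient mice over both sides and 4 in susceptible mice, all lower, where all genes were shifted by -0.17. With place in the table as a block it was 1 in susceptible, resilient and all defeated mice over both sides (Rps26), 2 on the right in susceptible mice, 0 on the right in resilient mice and 1 between susceptible and resilient mice on the right (Rpl7a). Array weights gave 1 and 2 on the left in susceptible and resilient mice, 8 in resilient and 7 in all defeated mice over both sides. The authors' values gave 2 on the right in susceptible and in resilient mice and 6 in resilient mice over both sides. Trend and robust variance gave 2, 2 and 5 there, and cyclic loess 2, 0 and 5. With only the groups compared in the fit there were 2 and 0 on the right. Both wider detection filters and the test of every probe gave 0 on the right in resilient mice, and the last gave 1 on the left in susceptible mice. Leaving out 1 array gave 1 to 6 members in all defeated, 1 to 8 in resilient and 0 to 3 in susceptible mice over both sides, 0 to 2 and 0 to 1 on the right in susceptible and resilient mice, 0 to 1 on the left in susceptible mice, 0 to 0 on the left in resilient mice, and 0 to 1 on each side between susceptible and resilient mice. It gave 0 to 0 in the 5 comparisons of or between left and right. The causes were not tested.

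Replicate numbers were not taken to pair the sides, and how pools map to numbers is not stated. The main fit holds no term for the number, and fits with such a term are given below. Over all genes same-numbered left and right arrays deviated together with r from -0.02 to 0.34, and 3 of 8 pairs were over 0.1. Left and right arrays of other numbers had r from -0.26 to 0.20 over all genes. Over the 52 members alone r was 0.12 to 0.41 in all 8 same-numbered pairs, higher than the -0.25 to 0.10 in the 14 others. These r use deviations from the mean of each group, so pairs within a group are not separate observations. The control pairs hold a single size, 0.17, with its sign reversed between same and other numbers. With the number as a replicate block 2 members were called on the right in susceptible against control mice and 1 on the right in susceptible against resilient mice, and Rps27l in defeated mice missed the threshold (0.17, adjusted p = 0.054). With mice and number as a random block (correlation 0.12), Rps4x in defeated and Rps6 in resilient mice missed the threshold (adjusted p = 0.055 and 0.060).

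Of 1856 values of single genes under alternatives 36 changed sign, 21 of them with median scaling, under which all genes shifted by -0.117 to -0.203 against control in the comparisons by side. With that scaling, Rps4x was at -0.0115 in all defeated, -0.0412 in susceptible, -0.187 in susceptible left and -0.0618 in resilient left mice, against control. Rps27l was at -0.0474 in all defeated, -0.0678 in susceptible, -0.0270 in resilient, -0.118 in susceptible left, -0.0172 in susceptible right and -0.100 in resilient left mice. Rps6 was at -0.0265 in all defeated, -0.0704 in susceptible and -0.149 in susceptible left mice, Rps26 at -0.0906 in susceptible left and -0.0121 in resilient left mice, and Rps2 at -0.0205 in susceptible left mice. In all defeated mice Rpl3 was at -0.138, Rpl7l1 at -0.139, Rpl39 at -0.134, Rpl22 at -0.102 and Rpl36al at -0.0696. Of the rest, Rpl10 in all defeated mice was at 0.0145 with the replicate block and at 0.102 with place as a block, Rpl39 at -0.0254 with the replicate block, Rps4x in susceptible left mice at -0.00131 with place as a block, and Rps24 at 0.00252 for laterality against control with the mean of its probes. Leaving out 1 array gave Rpl5 -0.380 to 0.0510 on the left in susceptible and -0.370 to 0.0618 in resilient mice (highest without control left replicate 1), Rps4x -0.0204 to 0.0503 on the left in susceptible mice, and in all defeated mice Rpl3 -0.00656 to 0.0363, Rpl10 -0.0463 to 0.00511 and Rpl39 -0.0474 to 0.0613.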
